A study of Mus musculus with 3 samples.

Results

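The genes described here encode the proteins of the cytosolic ribosome. They were taken by symbol from the RefSeq gene table of mouse: protein-coding genes named Rpl or Rps followed by a digit, or Rplp or Rpsa, without the Rps6k kinase genes. This gave 91 of 21900 protein-coding genes, 56 with symbols of the large subunit and 35 with symbols of the small subunit. For 14 of them the symbol marks a paralog, a retrogene, a pseudogene-like copy typed as protein-coding or, in Rps19bp1, a binding partner of a ribosomal protein. None of the 14 had a peak. The data are AGO2 HITS-CLIP of P19 cells, a mouse embryonal carcinoma line, in 3 libraries that form 1 group, with no treated or control group. In HITS-CLIP, RNA crosslinked to a protein is pulled down with it and sequenced, and AGO2 is the Argonaute protein that carries microRNAs to their targets. The antibody was clone 2D4, and inserts of 20 to 50 nt were selected after PCR. The authors gave 4 lists of peaks over the combined series, made with the callers CIMS, Piranha, Pyicoclip and PIPE-CLIP. They hold no value for a single library, so the depth behind a peak and the spread between libraries are unknown, and no difference was tested. As the lists share their libraries, they are not replicates.

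Ribosomal proteins assemble with ribosomal RNA into a small subunit, which reads the mRNA, and a large subunit, which joins amino acids. Their mRNAs are among the most abundant of growing cells and begin with a run of pyrimidines, the terminal oligopyrimidine (TOP) tract, through which the mTOR pathway sets their translation. Many of these genes also carry small nucleolar RNAs (snoRNAs) in their introns, which guide chemical modification of ribosomal RNA. A peak inside such a gene can therefore come from the mRNA or from a snoRNA, and peaks in small RNA genes are given separately below.

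Of the 91 genes, 15 held at least 1 peak, 16.5%, where 9.77% of all protein-coding genes did. They included Rpl3, Rpl4, Rpl8, Rpl13, Rpl15, Rpl30, Rpl32, Rpl34, Rpl41 and Rplp2 of the large subunit and Rps3, Rps12, Rps14 and Rps26 of the small subunit. The other 76 held none. Both subunits were represented, with 10 of 56 large-subunit symbols and 5 of 35 small-subunit symbols. Outside small RNA genes, 11 of the 91 genes had a peak (12.1%), and the share of all protein-coding genes was 9.66%. Peaks in at least 2 lists were held by 5 genes (5.49%), against 3.99% of all genes, and outside small RNA genes by 4 (4.4%), against 3.88%. Only Rpl13 and Rps14 had peaks in 3 lists (2.2% of members, 0.973% of all genes), and no gene had them in 4. Outside small RNA genes the shares lie near those of all genes, whose spans are longer. Without PIPE-CLIP, 7 genes remained (7.69%), where 4.58% of all genes had a peak. Without the minus-strand PIPE-CLIP clusters alone, 8 genes had a peak. The share of all genes under that rule was not counted, so these 8 cannot be set against it. Most PIPE-CLIP clusters were on the minus strand: of 2872 in exactly 1 protein-coding span, 2560 were on it and 312 on the plus strand.

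The spans are short, which bears on these shares. The median span was 3175 nt for the members and 17146 nt for all protein-coding genes. The longest member span was 16779 nt, and among the 10809 protein-coding genes with spans up to that length, 4.07% held a peak, 3.98% held one outside small RNA genes and 1.46% held peaks in at least 2 lists. The members' 16.5%, 12.1% and 5.49% are above these shares, and the differences were not tested. Counted per length, the member spans held 29 peaks, or 8.57 per 100 kb, against 0.486 per 100 kb over all protein-coding spans and 1.54 over spans up to the longest member. These rates include peaks in small RNA genes, 7 of the 29 for the members, and count a site once for each entry. Merged, the 29 peaks form 19 sites, 14 of them outside small RNA genes. Rates outside small RNA genes were not computed. mRNA abundance was not measured here, and its part in these rates was not tested.

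The lists differed in how many members they held. CIMS had 0 of its 169 peaks in a member span, which allows up to 1.78% of its peaks. For the genes, 0 of 91 allows a share of up to 3.3%, and 0.279% of all protein-coding genes had a CIMS peak. Piranha had 2 peaks in 2 genes, Pyicoclip 10 peaks in 7 genes and PIPE-CLIP 17 peaks in 13 genes. As shares of the 91 genes these are 2.2%, 7.69% and 14.3%. The shares of all protein-coding genes were 2.89% in Piranha, 4.54% in Pyicoclip and 7.12% in PIPE-CLIP. Of all peaks in a list, the members held 0.141% in Piranha (95% Wilson interval 0.0387 to 0.513), 0.484% in Pyicoclip (0.263 to 0.888) and 0.522% in PIPE-CLIP (0.326 to 0.834). Intervals cover counting error only.

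The starts of these genes are shown because the TOP tract lies there. RefSeq promoter entries (GRCm38.p6, the coordinates of mm10) matched 70 of the 91 members, with 82 entries from 250 nt before to 50 nt after the annotated start. Peaks touched 0 of these 82 windows, which allows a share of up to 3.66%, and 0.268% of 21263 windows of all protein-coding genes. So few windows could not show a lower share than that of all genes. The sequences below run from 15 nt before the annotated start to the fifteenth base from it, on the gene strand. Capitals mark the longest unbroken run of C or T. They are the 2 members with an entry and peaks in several lists (Rpl13, Rplp2), the 2 with the longest runs among members with peaks (Rpl34, Rpl15) and the 2 with the shortest (Rpl41, Rps3).
Rpl13, chr8:123102335-123102364, plus strand: TTCCCTTTCgcctgattttgattggcgttt
Rplp2, chr7:141447636-141447665, plus strand: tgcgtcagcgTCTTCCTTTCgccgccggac
Rpl34, second annotated start, chr3:130730323-130730352, minus strand: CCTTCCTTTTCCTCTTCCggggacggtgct
Rpl15, chr14:18270972-18271001, minus strand: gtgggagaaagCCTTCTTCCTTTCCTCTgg
Rpl41, chr10:128549154-128549183, minus strand: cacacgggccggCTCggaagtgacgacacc
Rps3, chr7:99483695-99483724, minus strand: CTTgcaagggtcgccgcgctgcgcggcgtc

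The runs were 9 nt in Rpl13, 10 nt in Rplp2, 18 nt in Rpl34, 17 nt in Rpl15 and 3 nt in both Rpl41 and Rps3. The first annotated start of Rpl34 had a run of 8 nt. The Rpl13 run lay wholly before the annotated start and the 18 nt run of Rpl34 mostly before it, both from 15 nt before. Such letters need not be part of the mRNA. The runs of Rplp2 and Rpl15 began 5 and 4 nt before the start and crossed it. A run of at least 8 nt was found in this window for 29 of 70 members (41.4%), for 6 of the 9 members that had a peak and an entry, and for 14.0% of 17492 protein-coding genes with an entry. The median longest run was 7 nt for members and 5 nt for all genes. Annotated starts can lie some bases from the true start, so a missing run says only that these letters are not in this window.

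Rpl13 and Rps14 held the sites seen by most callers, and both lay at the end of the gene. Rpl13 (gene 270106) encodes a protein of the large subunit and spans 123102350 to 123105244 on chromosome 8, plus strand. Its site lay at 123105153 to 123105241, with its centre 42.5 to 47.0 nt before the end of the span. Pyicoclip listed the same 89 nt interval in 2 entries, with scores of 35 and 33. PIPE-CLIP had a cluster of 56 nt with a score of 19, and Piranha a peak of 40 nt with a score of 13. All were on the plus strand, that of the gene. The deposited score has no stated unit and ranks peaks only within a list. By that rank, the Pyicoclip entry of 35 was at or above 95.9% of its list, while the PIPE-CLIP cluster was at or above 78.8% and the Piranha peak at or above 68.0%. The Pyicoclip and PIPE-CLIP peaks were 110 and 131 nt from the microRNA gene Mir7079, which lies in the same span at 123104975 to 123105043 and held no peak.

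Rps14 (gene 20044), which encodes a protein of the small subunit, spans 60774596 to 60778546 on chromosome 18. Its site ran from 60778428 to 60778547, 1 base past the end of the span. Pyicoclip gave it a peak of 120 nt with a score of 29, at or above 94.3% of the list. PIPE-CLIP had a cluster of 118 nt with a score of 23, at or above 86.8% of its list, and Piranha a peak of 20 nt with a score of 12, equal to the list median. All 3 were on the plus strand. Both genes thus had their widest peak in Pyicoclip and a narrower Piranha peak within it.

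Rpl8 and Rplp2 were each found by Pyicoclip and PIPE-CLIP. Rpl8 (gene 26961), whose protein lies close to the peptidyl transferase centre, spans 76904071 to 76906318 on chromosome 15 and had 2 sites on the plus strand. The site at 76906197 to 76906303 lay at 96.9% to 97.0% of the span and scored 14 in Pyicoclip and 18 in PIPE-CLIP. The other, at 76904841 to 76904931, lay at 35.9% to 36.3% of the span and scored 11 in both lists, below both list medians of 12 and 14. The site at the end of the gene thus had the higher score of the pair in each list.

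Rplp2 (gene 67186) encodes an acidic protein of the ribosomal stalk, which recruits translation factors. It spans 141447651 to 141451359 on chromosome 7, plus strand. Its site at 141447962 to 141448029 lay in the first part of the span, at 9.3%, and scored 12 in Pyicoclip and 11 in PIPE-CLIP. The nearest small RNA gene, Snora52, began 774 nt further on. It was the only member site outside small RNA genes in the first 10% of a span.

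The other 7 genes with peaks outside small RNA genes had them in 1 list each. Rps3, whose protein sits at the mRNA entry channel of the small subunit, had 2 PIPE-CLIP clusters on chromosome 7. One, at 99482261 to 99482347, scored 23, at or above 86.8% of its list, and lay 438 nt from Snord15a. The other, at 99481727 to 99481788, scored 11 and lay 997 nt from it. Rpl15 had 2 PIPE-CLIP clusters on chromosome 14, at 18268837 to 18268913 with a score of 12 and at 18268407 to 18268496 with a score of 11. Neither Rpl15 cluster exceeded the list median of 14. Rpl41, which encodes a very small basic peptide of the ribosome, had a cluster at 128548236 to 128548297 on chromosome 10 with a score of 16. The Rpl32 cluster, at 115805577 to 115805664 on chromosome 6, scored 13 and lay at 96.7% of the span. The Rpl4 cluster, at 64177335 to 64177462 on chromosome 9, also scored 13, and lay 142 nt from the snoRNA gene LOC115487261. Rpl4 lines the exit tunnel of the large subunit, and its span holds 5 snoRNA genes, of which none had a peak.

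Rps26 and Rpl34 had peaks in Pyicoclip alone, and both were listed without a strand. The Rps26 peak, at 128625205 to 128625281 on chromosome 10, scored 15, and the Rpl34 peak, at 130729723 to 130729794 on chromosome 3, scored 10, the lowest score in the list. Rps26 contacts mRNA near the exit channel of the small subunit. The strand of origin of these 2 peaks is uncertain.

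**Figure D1:**
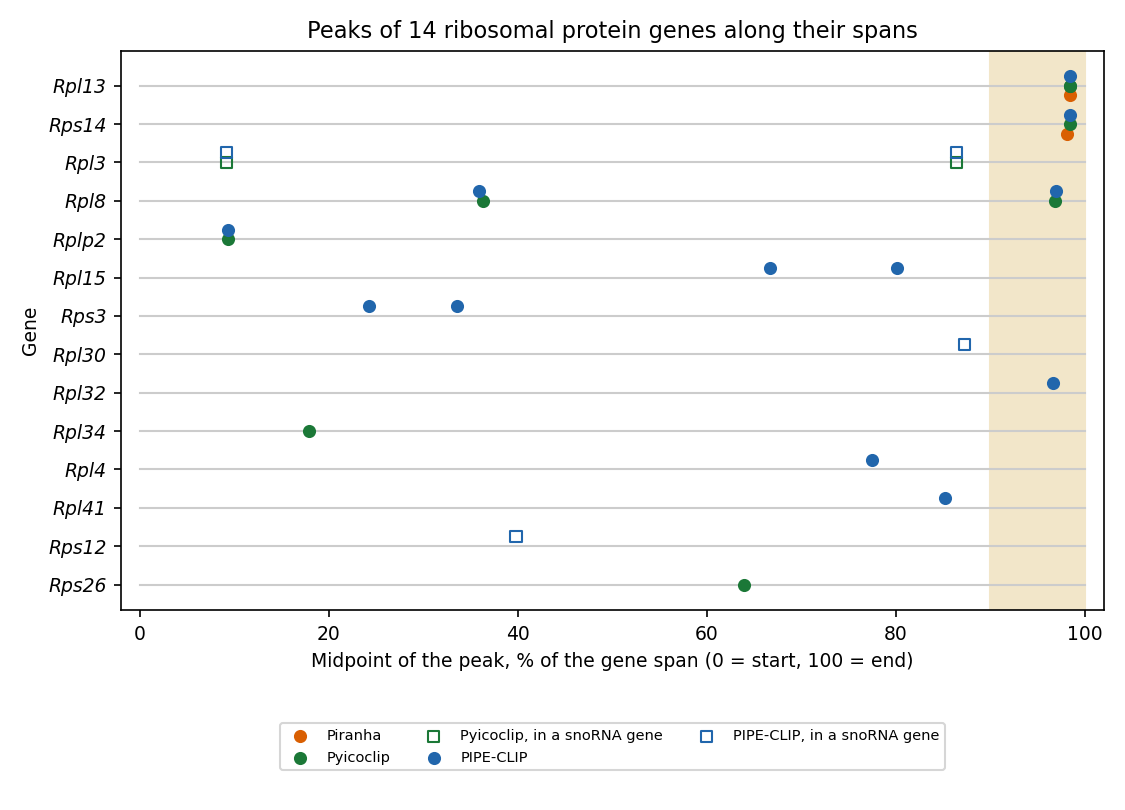
Midpoint of each peak as a percentage of the gene span (horizontal axis) for 14 of the 15 ribosomal protein genes with a peak (vertical axis), coloured by list; filled circles lie outside small RNA genes, open squares in a snoRNA gene, and the shaded band is the last 10% of the span. Peaks of Rpl13, Rps14, Rpl8 and Rpl32 fall in the band, and the 2 Pyicoclip entries of Rpl13 share 1 point.

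Position was read on the gene strand where the promoter table gave it, and otherwise on the strand of the peak. Of 22 peaks outside small RNA genes, 10 lay in the last 10% of the span (45.5%, Wilson interval 26.9 to 65.3) and 2 in the first 10% (9.09%). Over all protein-coding genes the shares were 37.5% of 4802 peaks and 9.48%. For genes with a known strand alone, 4 of 14 member peaks lay in the last 10% (28.6%, 11.7 to 54.6), against 36.9% of 3704 peaks of all genes. All 4 were calls of 1 site, that of Rpl13, so this share rests on 1 gene. Neither interval allows for repeat calls of 1 site. In the first 10% lay 14.3% of these member peaks, against 9.48% for all genes. Counted by peak, the direction of the difference from all genes in the last 10% depends on the peaks of Rps14, Rpl8 and Rpl32. These were read on their own strand. Repeat calls of 1 site also bear on it, as the share by gene given below lies under that of all genes. The median position was 82.7% of the span for the members and 78.5% for all genes, or 72.1% and 77.8% with a known strand. Peaks of several lists at 1 site count more than once here. Merged into sites, 4 of 14 lay in the last 10%, 1 in the first 10% and 9 between. By gene, 4 of 11 members (36.4%) and 43.0% of all 2014 genes placed in this way had a peak in the last 10%. The differences were not tested.

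All peaks with a known strand of gene and peak were on the strand of the gene. This held for 13 of 13 member peaks (lower Wilson bound 77.2%), from Rpl4, Rpl13, Rpl15, Rpl41, Rplp2, Rps3 and Rps12. Rpl13 gave 4 of the 13 and Rplp2 gave 2, each from 1 site. The bound counts such repeat calls as independent and so overstates the precision. Over all protein-coding genes, for peaks in exactly 1 span, 84.9% of 3701 such peaks were on the gene strand (83.7 to 86.0). That share depended on the list, with 97.8% in PIPE-CLIP, 70.2% in Pyicoclip and 58.1% in Piranha. The members had 9 of 9 in PIPE-CLIP, 3 of 3 in Pyicoclip and 1 of 1 in Piranha. The numbers in the last 2 lists are too small to set against those shares. A further 14 member peaks lay in genes with no promoter entry, and 2 had no strand.

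Peaks in snoRNA genes made up 7 of the 29 member peaks (24.1%, Wilson interval 12.2 to 42.1), in 4 host genes that had no other peak. Merged into sites, they were 5 of 19, and the interval does not allow for repeat calls of 1 site. Of the 7 peaks, 5 were minus-strand PIPE-CLIP clusters, and without all such clusters 2 of 18 member peaks (11.1%) lay in snoRNA genes. With a score of at least 15 the share was higher instead, with 6 of 15 member peaks in snoRNA genes. Rpl3, whose protein reaches into the peptidyl transferase centre, held 4 of the 7. Its Snord83b gene, at 80078503 to 80078579 on chromosome 15, was covered by a PIPE-CLIP cluster with a score of 41 and a Pyicoclip peak with a score of 17. The cluster of 41 was the highest-scoring PIPE-CLIP entry of any member, at or above 96.6% of its list. Snord43, at 80082859 to 80082906, was covered by a PIPE-CLIP cluster scoring 17 and a Pyicoclip peak scoring 11. The remaining 3 were PIPE-CLIP clusters. Among them, one lay at LOC115488553 in Rpl30 with a score of 20 and one at LOC115487513 in Rps12 with a score of 15. All 7 were on the minus strand. As most PIPE-CLIP clusters in protein-coding spans lie on that strand, this is not particular to these genes for the 5 clusters. For the 2 Pyicoclip peaks, the strands of that list as a whole were not counted. Of the 17 member clusters in PIPE-CLIP, 11 were on the minus and 6 on the plus strand.

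These peaks covered all or nearly all of their snoRNA genes, with edges at most 16 nt from those of the gene. At LOC115488553 the cluster of 133 nt matched the gene of 132 nt to within 1 nt at either end. At LOC115487513 the cluster met the gene at its higher coordinate and fell 3 nt short of it at the other end, covering 95.9% of it. At Snord83b and Snord43 the peaks covered the whole gene and reached 3 or 4 nt beyond it on 1 side and 11 to 16 nt on the other.

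**Figure D2:**
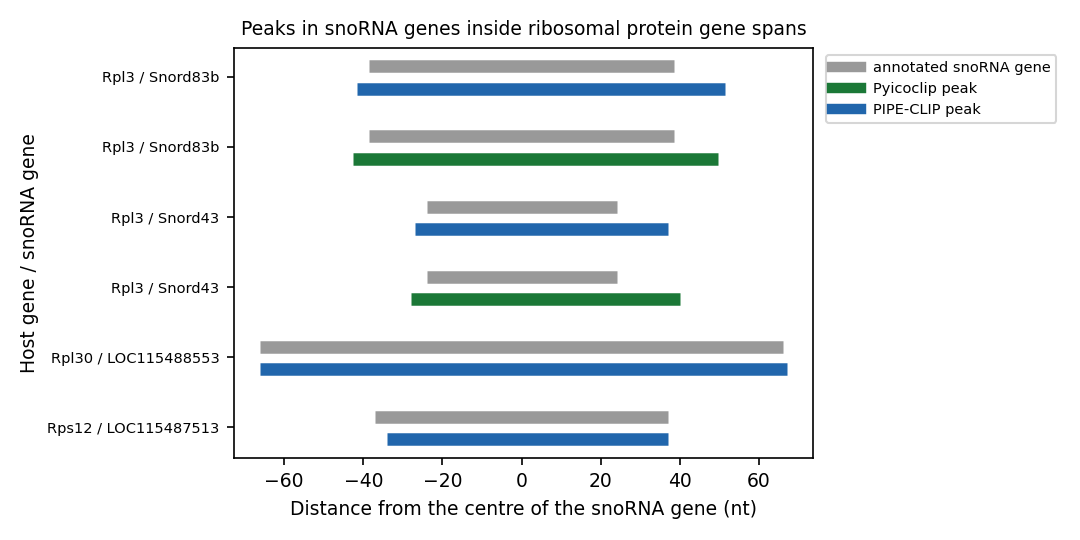
Extent of 6 of the 7 peaks in snoRNA genes (coloured by list) and of the annotated snoRNA gene (grey), as distance in nt from the centre of the snoRNA gene. Each peak shown covers all or nearly all of its gene. The largest distance between their edges is 16 nt, at Snord43, a gene of 48 nt whose peaks are 68 and 64 nt wide.

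The member spans hold 59 annotated snoRNA genes in 30 host genes, and 5 of the 59 had a peak (8.47%, Wilson interval 3.67 to 18.4). Of 402 snoRNA genes inside other protein-coding spans, 6 had a peak (1.49%, 0.686 to 3.22), and of all 1340 snoRNA genes 21 did (1.57%). Without minus-strand PIPE-CLIP clusters, 2 of the 59 (3.39%) and 4 of the 402 (0.995%) had a peak. The difference was not tested. Rpl4 and Rpl13a are the hosts with the most snoRNA and other small RNA genes without a peak, 5 each. All small RNA types together, 31 members are hosts and 60 are not. Of the 31 hosts 9 had a peak of any kind, 4 of them only in small RNA genes, and of the 60 others 6 did. Outside small RNA genes, 5 of the 31 hosts had a peak. Hosts and others were not counted over all protein-coding genes, and their difference was not tested.

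The member spans also hold 4 microRNA genes, among them Mir3091 in Rps21, Mir5121 in Rpl13a and Mir7079 in Rpl13, and none of the 4 had a peak in any list. The mature sequences of Mir7079 are shown because its gene lies beside the Rpl13 site, with the seed, bases 2 to 8, in capitals. The arms do not share a seed.
mmu-miR-7079-5p: aGGGCUGAggcagugaguccug
mmu-miR-7079-3p: uGACUUCUguucucuuuccag

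Scores of the member peaks were moderate. In Pyicoclip they ran from 10 to 35 with a median of 14.5, and the list runs to 229 with a median of 12. In PIPE-CLIP they ran from 11 to 41 with a median of 16, and the list runs to 1542 with a median of 14. The 2 Piranha scores were 12 and 13, with a list median of 12 and a maximum of 87. Above the list median were 6 of 10 Pyicoclip peaks, 10 of 17 PIPE-CLIP clusters and 1 of 2 Piranha peaks. The member peaks were wide in Pyicoclip. All 10 were over 60 nt, from 68 to 120 nt, where 46.0% of Pyicoclip peaks in protein-coding spans were. In PIPE-CLIP 16 of 17 were over 60 nt, where 85.6% of clusters in protein-coding spans were. Their median width was nevertheless smaller, 77 nt against 85 nt for clusters in protein-coding spans. Only 8 of the 17 were wider than the list median, also 85 nt.

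**Figure D3:**
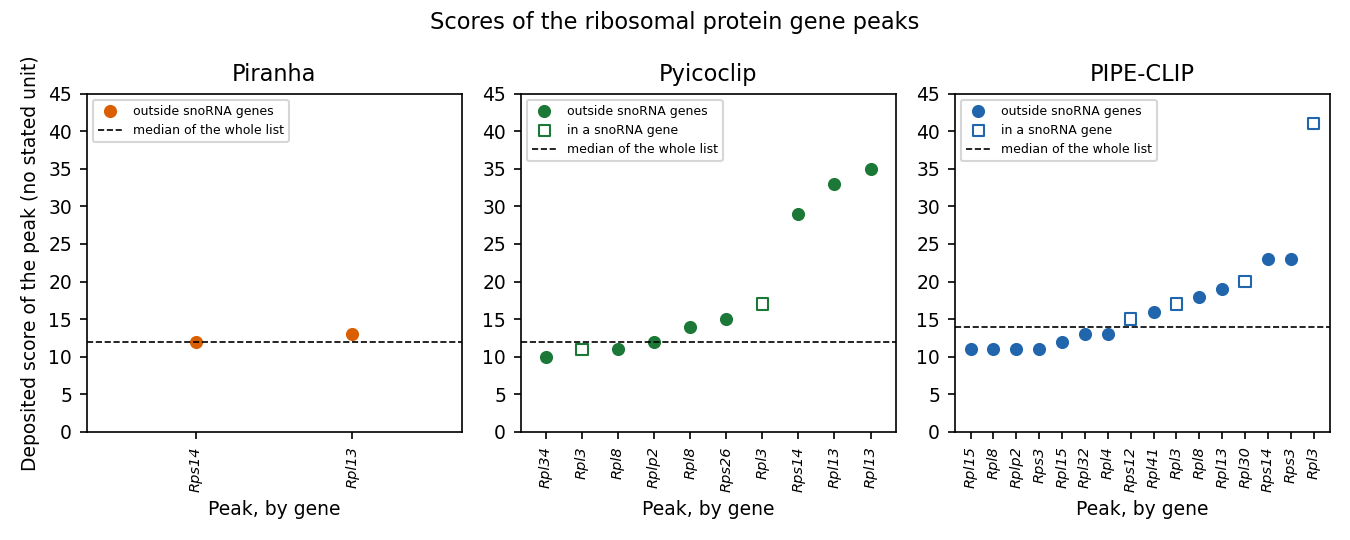
Deposited score of 28 of the 29 member peaks (vertical axis, no stated unit) in Piranha, Pyicoclip and PIPE-CLIP, ordered by score and labelled by gene; dashed lines are the medians of the whole lists, 12, 12 and 14. Rpl13 and Rps14 stand highest in Pyicoclip, with 29 to 35, and the Snord83b cluster in Rpl3 stands highest in PIPE-CLIP, with 41.

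Other gene families of translation were counted in the same way. Among mitochondrial ribosomal protein genes, which serve the ribosome of the mitochondrion, 1 of 78 had a peak, a single PIPE-CLIP cluster in Mrpl39. Initiation and elongation factor genes had 15 of 71 (21.1%), of which 8 were in at least 2 lists. They were taken by symbol, Eif or Eef followed by a digit. The 15 therefore include the kinase gene Eif2ak2 and the binding-protein gene Eif4ebp2, each in 1 list, which are not factors themselves. Among them were Eif3a, a subunit of the factor that holds the small subunit before initiation, with 16 peaks, and Eef1a1, which brings aminoacyl-tRNA to the ribosome, with 5. Eif4a1 and Eif4a2, helicases of the cap complex, had 5 peaks each, of which 2 and 4 lay in small RNA genes. Eef2, the translocation factor, had 12 peaks. Eef1b2, Eif4h and Eef1d, with 4, 3 and 2 peaks, were the remaining factor genes in at least 2 lists. Ribosome biogenesis genes had 4 of 28 (14.3%), namely Npm1 and Ncl, both nucleolar proteins, with 10 and 6 peaks, and Ubtf and Tcof1 with 2 and 1.

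Of 16 other TOP mRNAs, 8 had a peak (50.0%) and 6 had peaks in at least 2 lists. These were Npm1, Eef1a1, Eef2, Pabpc1, Eef1b2 and Eef1d, several of which also stand in the lists above. Npm1, Eef2 and Pabpc1 were known from earlier results to hold peaks when the list was made, so its share is no independent evidence. Of 3 ribosomal proteins with other symbols, only Rack1, a scaffold on the small subunit, held peaks, with 1 in Pyicoclip and 3 in PIPE-CLIP. The share of cytosolic ribosomal protein genes thus lay between those of the mitochondrial ribosomal proteins and of the Eif and Eef genes taken by symbol. Outside small RNA genes the 3 shares were 12.1%, 1.28% and 21.1%. Span lengths of the other families were not compared, though length bears on such shares, and the differences were not tested.

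**Figure D4:**
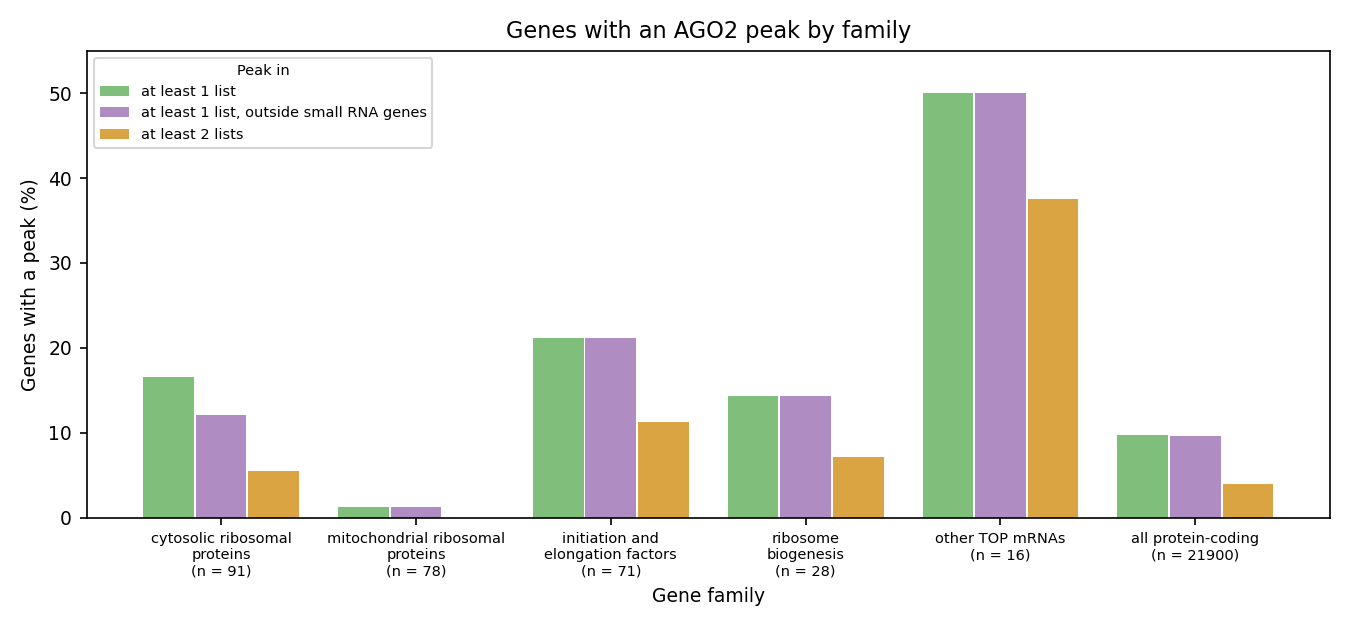
Share of genes with a peak (vertical axis, %) in at least 1 list, in at least 1 list outside small RNA genes and in at least 2 lists, for 5 gene families and all protein-coding genes; n is the number of genes. The 91 cytosolic ribosomal protein genes stand at 16.5%, 12.1% and 5.49%, against 9.77%, 9.66% and 3.99% for all genes.

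Ribosomal protein genes have many near-identical copies. The gene table lists 324 pseudogenes with such symbols, and 3 of them (0.926%) held 4 peaks, where 0.45% of all pseudogenes held a peak. Each of the 4 also lay in another gene, so the source is uncertain. The Pyicoclip and PIPE-CLIP peaks of Rps3a3 lay in Pde4d, and the PIPE-CLIP cluster of Rpl38-ps2 in the long non-coding RNA gene Gm30215. The PIPE-CLIP cluster of Rps18-ps6 also lay in Rps18-ps4, which the table types as a long non-coding RNA. How reads that fit several copies were treated is not given in the sources used here, which leaves the source copy uncertain for the member peaks outside snoRNA genes. Within 2000 nt outside the member spans there were only 3 peaks, 1913 and 1930 nt from Rpl21 and 744 nt from Rpl36. Of markers of embryonal carcinoma cells, 5 of 16 held a peak (31.2%), namely Lin28a, Trim71, Lefty1, Lin28b and Pou5f1. Of 8 neural and muscle markers 1 did (12.5%), Map2, and of all protein-coding genes 9.77% did. Peaks do not measure expression, so this does not check the line.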

How the data were processed

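Per the submitters' processing notes, reads were processed with cutadapt and Novoalign and the genome build was mm10. Tool versions, caller settings and how the 3 libraries were pooled: not given in the sources used here. The authors deposited 4 peak lists, each with position, strand and a score without stated unit, the lowest of which is 10. The labels name no molecular identifiers.

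Members were found by symbol in a RefSeq gene table (GRCm38.p6). A peak was assigned to each span that held its midpoint, on either strand, and set apart if its midpoint lay in a small RNA gene. Gene strand and start sequences came from RefSeq promoter entries. Exons were not used. Overlaps of at least 1 nt, strand ignored, merged peaks into sites. Shares have 95% Wilson intervals, and a share of 0 the limit of 3 counts. The assignment was tested on simulated data. Python 3.11.15, pandas 2.3.3, scipy 1.17.1 and matplotlib 3.10.9 were used.

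Named were members with a peak, of which 1 is counted but not reported here by name, the small RNA genes in their spans with a peak, and up to 8 genes per other family with peaks in at least 2 lists. Ubtf, Tcof1, Mrpl39, the markers, the pseudogenes and microRNA genes, and the start sequences of members without a peak there, were chosen after values were seen. Members and lists were chosen with earlier results of these data known.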

Additional observations from a re-analysis of the deposited data

How the results depend on the processing

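With 1 group and no value per library, leaving out a library could not be done. No paired analysis was possible because there is only 1 group. Settings tried were other overlap and strand rules, peaks in exactly 1 protein-coding span, standard subunit symbols, a score of at least 15, and lists or clusters left out. Several could not change a count: CIMS held no member peak, settings on PIPE-CLIP leave the other lists as they are, and the symbols left out had no peak. A count moved by over 1.5 times in 6 cases. Without PIPE-CLIP, the genes with a peak fell from 15 to 7. With a score of at least 15, Piranha held 0 of them in place of 2 and Pyicoclip 4 in place of 7. Without minus-strand PIPE-CLIP clusters, a setting chosen after seeing the data, genes with a peak numbered 8, those in PIPE-CLIP 5 in place of 13, and peaks in small RNA genes 2 in place of 7. These counts are lower because fewer peaks were used. The 6 cases compare counts and not shares. With a score of at least 15, 6 of 15 member peaks lay in small RNA genes in place of 7 of 29, a higher share. The numbers are small, and the unknown depth limits what an absent peak shows: for the 76 members without one, binding was not detectable in these lists.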
